A study of Drosophila melanogaster with 11 samples.

Results

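The muscle and myoblast genes described here are 35 listed Drosophila melanogaster genes, of which 27 encode parts of the contractile unit of muscle, the sarcomere, and 8 act earlier, in myoblasts. Rows of the deposited raw count table were taken as members where their symbol was one of the 35. This gave 32 of 16034 rows, 24 of them sarcomere genes and 8 early myoblast genes. Act79B, an actin gene, and fln, the flightin gene, lay in rows without a symbol that held at most 5 and 7 counts in any library, and Msp-300, a giant spectrin-repeat protein gene, is spelled Msp300 in the table, so the rule took none of these. Msp300 had a mutant log2 fold change of -0.18 ± 0.27 in salivary glands and -0.95 ± 1.11 in wing discs (SE), and neither passed the test.

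The RNA came from 3rd instar larvae reared at 25 C, whose salivary glands and wing discs were sequenced apart. Mutant larvae were homozygous for c07081, a piggyBac insertion allele of dCap-D3 (w;dCap-D3c07081/c07081), and wild-type larvae were w1118; the mutated gene encodes the CAP-D3 protein of the condensin II complex, which compacts chromosomes. There were 3 mutant and 3 wild-type salivary libraries (non-directional, 50 tissues pooled per sample) and 2 mutant and 3 wild-type wing libraries (directional, 150 tissues pooled per sample). A single allele was used. Whether libraries of 1 group stem from separate crosses is not stated, so the p-values reflect the spread of these libraries alone, which may be technical.

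Myoblasts that will form the adult flight muscles lie on the inner face of the wing disc, as adepithelial cells that express the transcription factor Twist and stay undifferentiated during larval life. On differentiation, Mef2 and other factors turn on fusion genes and then the genes of the sarcomere, in which myosin thick filaments slide along actin thin filaments under the control of tropomyosin and troponin, with both anchored at Z-discs and M-lines by giant proteins of the titin and obscurin families. The larval salivary gland is a secretory epithelium with no muscle layer of its own, and several proteins named for muscle, among them alpha-actinin and some tropomyosin and Zasp isoforms, also serve the cytoskeleton of other cells.

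The libraries held 52483185 to 157639957 counts, and levels are given in CPM after scaling of all 11 libraries by the trimmed mean of M-values. Cap-D3 checked the labels: it stood at 0.0857 ± 0.0109 CPM in mutant and 6.84 ± 0.903 CPM in wild-type salivary glands (SD, n = 3 each), and at 1.71 ± 0.158 CPM in mutant (n = 2) and 12.3 ± 5.09 CPM in wild-type wing discs (n = 3). It passed the test in salivary glands (log2 fold change -6.33 ± 0.22, adjusted p = 1.43e-04) but not in wing discs (-2.75 ± 0.38, adjusted p = 0.0916), where both mutant libraries lay below all wild-type libraries. Some libraries stood apart from their group. Wild-type wing replicate 3 is numbered 59 in the labels, where the other libraries run from 22 to 31, and held 157639957 counts, against 59495487 to 65095670 in the other wing libraries; whether it was made apart is not stated. In wild-type wing discs, replicate 3 gave more counts to genes with a large total exon length than replicate 1 did. Among the genes tested there, its median log2 ratio to replicate 1 was -0.25 below 2000 bp of exon and 1.52 from 10000 bp on. Replicate 2 went the other way, with 0.17 below 2000 bp and -0.81 from 10000 bp on. The mutant wing libraries followed replicate 1, with medians between -0.23 and -0.004 in every length class. Wild-type wing replicate 2 also carried more fat body RNA: the sum of 9 fat body markers was 10882 CPM there, against 1204 CPM in replicate 1 and 2151 CPM in replicate 3. In salivary glands, the sum of 6 gut markers was at most 1.39 CPM in mutant libraries and 2.04 CPM in wild-type replicate 3, but 428 CPM in wild-type replicate 1 and 1614 CPM in replicate 2.

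**Figure D1:**
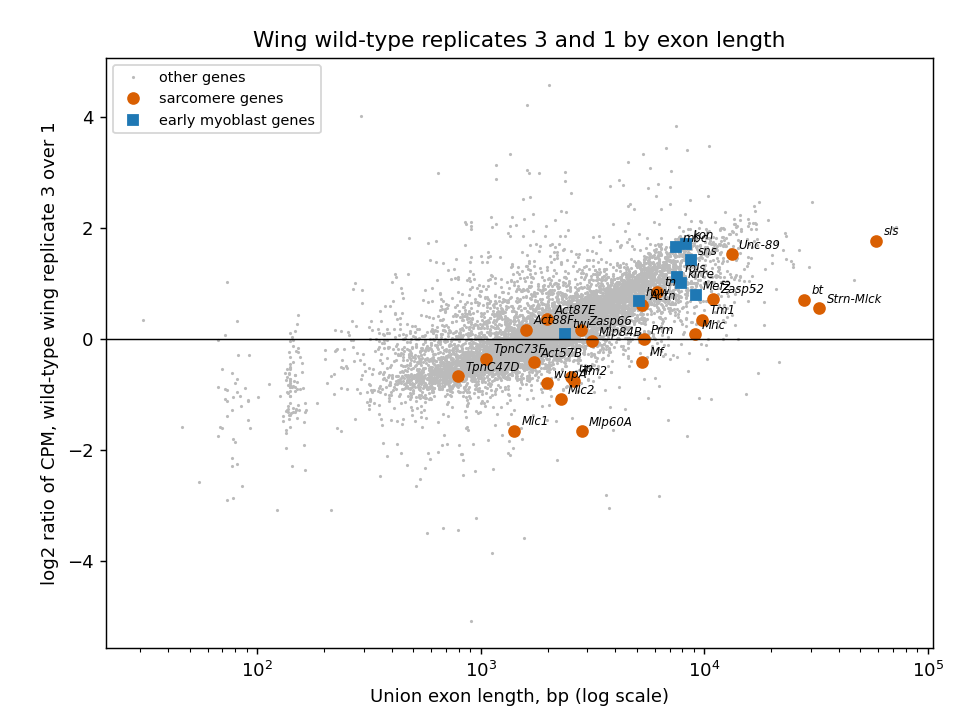
The log2 ratio of CPM between wild-type wing replicates 3 and 1 (y axis) is plotted against total exon length in bp (x axis, log scale). Points are the genes tested in wing discs that have a length, with the 24 sarcomere genes and the 8 early myoblast genes marked. The ratio climbs with length among the genes tested, and kon at 1.70 and sls at 1.77 lie at its upper end, while Mlc1 at -1.65 and Mlp60A at -1.66 lie low.

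In the wild type, the members differed widely in which tissue held them. Compared per length, as CPM per kb of exon, the 5 highest members in salivary glands were Tm1 (53.3 ± 14.6), Actn (45.1 ± 7.03), Zasp52 (28.7 ± 3.82), Strn-Mlck (27.0 ± 7.79) and TpnC73F (18.1 ± 2.50), and in wing discs Tm1 (25.0 ± 6.30), Actn (20.3 ± 6.602), Act57B (18.3 ± 9.46), Mlc2 (16.2 ± 11.8) and rols (10.4 ± 5.82; SD, n = 3 each). Mhc, the only muscle myosin heavy chain gene of the fly, was low in both, at 0.512 ± 0.0853 CPM per kb in wild-type salivary glands and 0.509 ± 0.0992 CPM per kb in wild-type wing discs. Because Tm1, Strn-Mlck, Zasp52 and Actn made up 90.1% to 95.05% of the sarcomere CPM of salivary libraries and 57.4% to 87.4% of that of wing libraries, the summed sarcomere level mostly measures these 4 genes. It reached 1674 to 2525 CPM in wild-type salivary glands, against 535 to 711 CPM in wild-type wing discs, and both ranges lie apart. Markers of some other tissues were also higher in the gland. By edgeR 8 of 9 fat body markers were called higher (median log2 difference 4.46), when 32.7% of all genes were called higher. So were 3 of 5 neuron and glia markers (3.62) and 4 of the 5 gut markers tested (7.45). The gut sum was high in wild-type salivary replicates 1 and 2 only, at 428 and 1614 CPM. In wild-type salivary replicate 3 it was 2.04 CPM, within the 1.25 to 3.00 CPM of wild-type wing discs. Of the hemocyte markers 2 of 9 were called higher (0.24). Most trachea markers went the other way, with 8 of 9 called lower and 1 higher (-2.83), when 42.4% of all genes were called lower. The 1 called higher was btl, the tracheal FGF receptor gene. It had 8.86, 8.04 and 11.02 CPM in wild-type salivary glands against 3.96, 3.69 and 7.52 CPM in wild-type wing discs. The fat body markers came to 102717 to 154440 CPM in wild-type salivary glands, against 1204 to 10882 CPM in wild-type wing discs, and the part of these tissues in the members' levels was not tested.

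The contrast of wild-type salivary gland over wild-type wing disc called 16 of 32 members at an adjusted p of at most 0.05, 9 higher and 7 lower, when 75.1% of all 10850 genes were called, 32.7% higher and 42.4% lower. The share of members called, 50.0%, lay below this background. Tissue and library kind, non-directional or directional, cannot be told apart in this contrast, and the median log2 value over all genes was -0.31, which another scaling (relative log expression) moved by 0.33 to 0.01.

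Strn-Mlck, a stretchin and myosin light chain kinase family gene (2R, 15946933 to 15989498 on BDGP6, as all positions here), stood at 597, 970 and 1086 CPM in wild-type salivary replicates 1 to 3, against 6.46, 6.62 and 9.52 CPM in wild-type wing replicates 1 to 3. The groups lay far apart, with a log2 difference of 6.87 ± 0.36 (adjusted p = 1.08e-06). Its row overlaps exons of Cyp4aa1 and a long noncoding RNA on the opposite strand.

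Other sarcomere genes were higher in the gland. Unc-89, the obscurin gene of the M-line, differed by 4.07 ± 0.59 (adjusted p = 2.00e-04). The Z-disc genes Zasp52 and Actn (alpha-actinin) differed by 2.12 ± 0.31 (adjusted p = 2.21e-04) and 1.15 ± 0.25 (adjusted p = 0.0022). bt, which encodes the projectin kinase of the titin family, had 9.46, 6.17 and 11.9 CPM in wild-type salivary glands against 1.121, 1.38 and 1.90 CPM in wild-type wing discs, without overlap (2.64 ± 0.29, adjusted p = 3.21e-05). TpnC73F, a troponin C gene, had 19.3, 16.5 and 21.8 CPM in wild-type salivary glands against 3.53, 8.76 and 2.74 CPM in wild-type wing discs (1.94 ± 0.39, adjusted p = 0.0015). Tm1, a tropomyosin gene with muscle and cytoskeletal products, had 359, 581 and 628 CPM in wild-type salivary glands against 242, 185 and 308 CPM in wild-type wing discs. Every wild-type salivary library lay above every wild-type wing library for these 6 genes, as was so for 30.8% of all genes (43.0% in the other direction), and Tm1 differed by 1.09 ± 0.30 (adjusted p = 0.0082).

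Among the actins the order was mixed, and these near-identical genes can share reads, so their levels are uncertain. Act88F, the flight muscle actin gene (3R, 15439969 to 15442177), had 18, 15 and 20 counts in wild-type salivary libraries, against 0, 3 and 3 counts in wild-type wing libraries (4.86 ± 0.82, adjusted p = 5.11e-04). Act87E, a larval and adult muscle actin gene, was instead lower in the gland, at 3.62, 4.28 and 4.11 CPM in wild-type salivary libraries against 14.5, 22.3 and 18.6 CPM in wild-type wing libraries (-2.20 ± 0.27, adjusted p = 5.94e-05). Mlc2, which encodes the regulatory light chain of muscle myosin, was also lower, at 9.85, 9.83 and 7.72 CPM in wild-type salivary libraries against 29.9, 66.8 and 14.1 CPM in wild-type wing libraries (-2.01 ± 0.59, adjusted p = 0.0118). The Mlc2 call was lost without wild-type wing replicate 2, where the log2 value was -1.11 (adjusted p = 0.0764).

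Of the 8 early myoblast genes 5 were called lower in the gland and 1 higher, where 42.4% of all genes were called lower, and 2 of the 5, sns and kirre, lost their call without 1 library. twi, which encodes the Twist factor of undifferentiated myoblasts (2R, 22985374 to 23048325), had 0.918, 0.403 and 1.204 CPM in wild-type salivary libraries against 21.8, 23.3 and 23.3 CPM in wild-type wing libraries (-4.76 ± 0.68, adjusted p = 1.94e-04). rols, whose scaffold protein acts in fusion at the founder cell membrane, had 7.67, 9.20 and 5.81 CPM in wild-type salivary libraries against 59.9, 47.7 and 129 CPM in wild-type wing libraries (-3.38 ± 0.41, adjusted p = 6.56e-05). kon, a muscle attachment and guidance receptor gene, had 3.65, 2.09 and 1.99 CPM in wild-type salivary libraries against 14.7, 8.72 and 48.0 CPM in wild-type wing libraries (-3.21 ± 0.61, adjusted p = 0.0011). For these 3 genes the tissues did not overlap.

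The recognition receptors of fusion were weaker cases. sns, expressed by fusion-competent myoblasts, had 4.49, 1.34 and 1.28 CPM in wild-type salivary libraries against 6.88, 3.78 and 18.6 CPM in wild-type wing libraries (-2.04 ± 0.68, adjusted p = 0.0211). kirre, its partner on founder cells, had 2.43, 2.22 and 1.26 CPM in wild-type salivary libraries against 3.64, 2.42 and 7.38 CPM in wild-type wing libraries (-1.19 ± 0.42, adjusted p = 0.0274). The tissues overlapped for both genes, and leaving out wild-type wing replicate 3 ended both calls, at -1.07 for sns (adjusted p = 0.134) and -0.53 for kirre (adjusted p = 0.196). sns also lost its call without wild-type salivary replicate 2 or 3, at -1.74 each, and kirre without wild-type salivary replicate 3, at -0.94, and with relative log expression scaling, at -0.81 (adjusted p = 0.0941), and with DESeq2, also at -0.81 (adjusted p = 0.0696).

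Mef2, the transcription factor gene that drives muscle differentiation, was the exception among the early genes: it had 110, 101 and 158 CPM in wild-type salivary glands against 20.8, 12.8 and 35.9 CPM in wild-type wing discs (2.41 ± 0.38, adjusted p = 3.29e-04). how, an RNA-binding protein gene of muscle and tendon cells, and mbc, the guanine nucleotide exchange factor gene that acts on Rac in fusion, differed by 0.09 ± 0.34 and 0.17 ± 0.49 (adjusted p = 0.821 and 0.766).

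**Figure D2:**
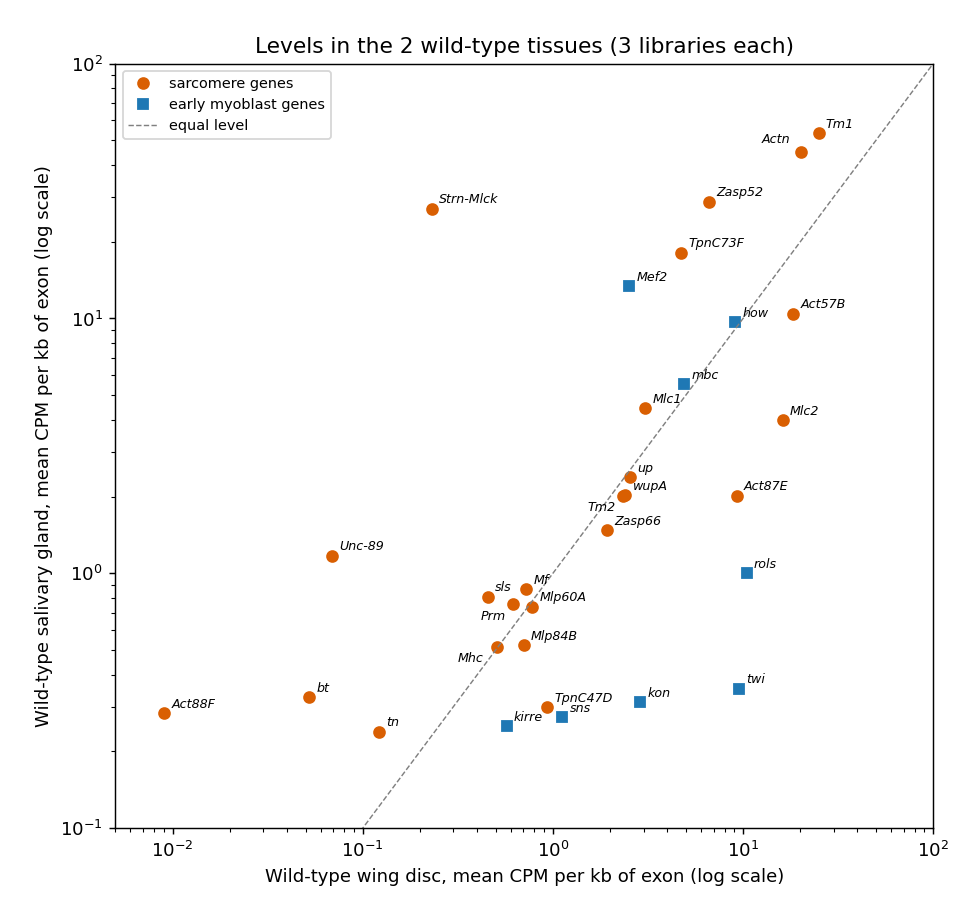
Mean CPM per kb of exon of each member in wild-type salivary gland (y axis) is plotted against that in wild-type wing disc (x axis), both on log scales, n = 3 libraries each. Strn-Mlck (27.0 in salivary gland, 0.230 in wing disc) lies far above the line of equal level, and twi (0.352 in salivary gland, 9.55 in wing disc) far below it.

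The wing disc comparison asked how the members behaved in mutant discs, which carry the adepithelial myoblasts. The myoblast gene twi was as high in mutant as in wild-type discs, and the ranges of all 8 early myoblast genes overlapped between the genotypes. Sarcomere genes had lower mutant values as a group: all 23 that could be tested had a negative log2 fold change (19 of 23 without wild-type replicate 3), with a median of -1.82 and a range of -4.15 to -0.03, and 16 of the 23 had mutant levels below every wild-type library, where 15.0% of all 9689 genes tested did and 54.3% had a negative value. The median over all genes was -0.03. TpnC47D, at the low end of the range, had 8 and 0 counts in mutant libraries and passed the filter on low counts through its wild-type libraries. The sarcomere genes were all measured in the same libraries, so they are not separate replicates of the genotype. Mhc alone passed the test, so by edgeR 1 of 31 members was called lower and 0 higher, with 0.475% of all genes called, 0.165% lower and 0.31% higher. DESeq2 called 9 sarcomere genes lower and 0 members higher, with 6.02% of all genes called, and a fit of all 11 libraries called Mhc, Prm and Tm2, with 1.29% called.

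Mhc (2L, 16766566 to 16788766) had 0.415 and 0.466 CPM in mutant discs, against 4.97, 3.59 and 5.28 CPM in wild-type discs, a log2 fold change of -3.30 ± 0.32 (adjusted p = 0.0338). The highest mutant library lay well below the lowest wild-type library. The counts behind these values were 43 and 44 in the mutant, against 492, 349 and 1294 in the wild type. The call rested on the full set of libraries: leaving out wild-type replicate 2 kept it, while the adjusted p was 0.669 without mutant replicate 1, 0.628 without mutant replicate 2, 0.209 without wild-type replicate 1 and 0.0619 without wild-type replicate 3, although the log2 value stayed between -3.44 and -3.20. No gene of the whole table was called without wild-type replicate 1 or without either mutant replicate.

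The other members of the thick filament had lower mutant means without passing the test. Mlc1, the alkali light chain gene of muscle myosin, had 0.617 and 0.519 CPM in mutant discs against 4.10, 7.66 and 1.24 CPM in wild-type discs (-2.89 ± 0.90, adjusted p = 0.375). Prm, which encodes the paramyosin core of the filament, had 0.666 and 0.488 CPM in mutant discs against 2.89, 4.17 and 2.89 CPM in wild-type discs (-2.45 ± 0.38, adjusted p = 0.109). Both had mutant libraries below all wild-type libraries. Mlc2 had 11.5 and 9.21 CPM in mutant discs against 29.9, 66.8 and 14.1 CPM in wild-type discs (-1.79 ± 0.74, adjusted p = 0.565). For Mf, the myofilin gene, the value was -1.82 ± 0.75 (adjusted p = 0.568).

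The thin filament and its regulators had values of the same sign. Tm2, the muscle tropomyosin gene, had 0.936 and 0.689 CPM in mutant discs against 5.18, 10.1 and 3.03 CPM in wild-type discs (-2.86 ± 0.67, adjusted p = 0.243). up, the troponin T gene, had 1.21 and 1.05 CPM in mutant discs against 5.52, 10.3 and 3.39 CPM in wild-type discs (-2.46 ± 0.60, adjusted p = 0.261), and wupA, the troponin I gene, had 1.26 and 0.848 CPM in mutant discs against 3.16, 9.34 and 1.77 CPM in wild-type discs (-2.13 ± 0.86, adjusted p = 0.553). In each of these genes wild-type replicate 2 was the highest library and the mutants were the lowest. The troponin C genes TpnC73F and TpnC47D gave -1.68 ± 0.64 (adjusted p = 0.518) and -4.15 ± 1.68 (adjusted p = 0.552). TpnC47D marked the low end of the range with 8 and 0 counts in mutant libraries, against 36, 161 and 47 counts in wild-type libraries.

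Act87E had 7.39 and 6.91 CPM in mutant discs against 14.5, 22.3 and 18.6 CPM in wild-type discs, with no overlap (-1.30 ± 0.24, adjusted p = 0.163). Act57B, the other actin gene that could be tested, had 20.6 and 21.3 CPM in mutant discs against 25.7, 50.1 and 19.1 CPM in wild-type discs (-0.54 ± 0.48, adjusted p = 0.9997), with overlap. Act88F had at most 3 counts in any wing library and was not tested there.

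Genes for proteins that hold the sarcomere together had log2 values between -2.34 and -0.11, and DESeq2 called tn, bt and Mlp84B lower. tn, the thin gene for a TRIM protein needed for sarcomere maintenance, had 0.116 and 0.170 CPM in mutant discs against 0.384, 1.10 and 0.771 CPM in wild-type discs (-2.32 ± 0.62, adjusted p = 0.301). bt had 0.482 and 0.615 CPM in mutant discs against 1.121, 1.38 and 1.90 CPM in wild-type discs (-1.33 ± 0.37, adjusted p = 0.314). Zasp66, a Z-disc gene, and the muscle LIM protein genes Mlp60A and Mlp84B had log2 fold changes of -2.34, -2.27 and -2.03, and adjusted p-values of 0.664, 0.646 and 0.348. Zasp52 had 65.4 and 60.0 CPM in mutant discs against 65.6, 43.2 and 108 CPM in wild-type discs (-0.11 ± 0.37), Actn had 91.7 and 89.2 CPM against 95.7, 79.0 and 146 CPM (-0.15 ± 0.26), and Tm1 had 231 and 222 CPM against 242, 185 and 308 CPM (-0.03 ± 0.21). These 3 genes, each with mutant levels inside the wild-type range, had an adjusted p of 0.9997, as did Strn-Mlck at -0.24 ± 0.21 and Unc-89 at -0.67 ± 0.78. sls, the titin-like Sallimus gene, had 8.15 and 7.56 CPM in mutant discs against 16.4, 7.94 and 56.3 CPM in wild-type discs (-1.65 ± 0.84, adjusted p = 0.744), so its wild-type level rested on replicate 3.

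Summed over the 20 sarcomere genes other than Tm1, Strn-Mlck, Zasp52 and Actn, the level was 59.2 and 54.1 CPM in mutant discs, against 126, 233 and 139 CPM in wild-type discs, with both mutant libraries below all 3 wild-type libraries. In bulk tissue, fewer cells of a type and less RNA per cell cannot be told apart. Markers of other cells were set beside this: the sum of 9 hemocyte markers was 13.1 and 10.9 CPM in mutant discs, against 30.8, 68.5 and 61.9 CPM in wild-type discs, and 7 of the 8 tested had negative log2 values (median -2.15, 0 called by edgeR, 7 with an unadjusted p under 0.05, and 5 lower and 1 higher by DESeq2). The 9 fat body markers summed to 3000 and 1169 CPM in mutant discs, against 1204, 10882 and 2151 CPM in wild-type discs, with all 9 log2 values negative (median -0.97, 0 called by edgeR, 0 with an unadjusted p under 0.05 and 0 by DESeq2). All 5 neuron and glia markers were negative too (median -1.32, 0 called by edgeR, 2 with an unadjusted p under 0.05, and nSyb called lower by DESeq2). Over all 9689 genes tested, 924 had an unadjusted edgeR p under 0.05. The 9 trachea markers summed to 1015 and 1020 CPM in mutant discs, against 985, 803 and 1630 CPM in wild-type discs. None of these markers was at 0 in all libraries of a group, and the part of these cells in the sarcomere values was not tested. Wild-type replicate 2 held the highest level of 16 of 24 sarcomere genes. Without it the median log2 fold change of the 23 sarcomere genes was -1.14, and all 23 were still negative.

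The early myoblast genes gave small values with wide errors in wing discs. twi had 22.2 and 22.5 CPM in mutant discs, against 21.8, 23.3 and 23.3 CPM in wild-type discs, a log2 fold change of 0.05 ± 0.15 (adjusted p = 0.9997). Mef2 had 19.5 and 19.4 CPM in mutant discs against 20.8, 12.8 and 35.9 CPM in wild-type discs (-0.15 ± 0.41), and how had 44.99 and 44.2 CPM in mutant discs against 43.2, 25.9 and 69.3 CPM in wild-type discs (0.05 ± 0.39). In both genes the wild-type libraries spread around the mutant pair, with replicate 2 lowest and replicate 3 highest.

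The fusion genes had the same layout. rols had 59.3 and 57.0 CPM in mutant discs against 59.9, 47.7 and 129 CPM in wild-type discs (-0.34 ± 0.43). sns had 6.86 and 6.01 CPM in mutant discs against 6.88, 3.78 and 18.6 CPM in wild-type discs (-0.49 ± 0.66), and kirre had 2.95 and 2.66 CPM in mutant discs against 3.64, 2.42 and 7.38 CPM in wild-type discs (-0.57 ± 0.48). mbc and kon gave -0.68 ± 0.70 and -0.59 ± 0.72. The median of the 8 was -0.41 with all libraries and 0.21 without wild-type replicate 3, so its sign rested on that library. All 8 had an adjusted p of 0.9997, which does not show that they were equal, and 0 had an unadjusted p under 0.05 or a DESeq2 call.

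Of the 8 early genes 7 have more than 5000 bp of exon, the range in which wild-type replicate 3 was high among the genes tested. The part of this trend in their values was not tested. Measured against wild-type replicate 1, the 13 members of 5000 to 10000 bp had a median log2 ratio of 0.78 in wild-type replicate 3, -0.46 in wild-type replicate 2, and -0.09 and -0.17 in mutant replicates 1 and 2. The 6 members below 2000 bp, all sarcomere genes, had medians of -1.17 and -1.52 in the mutant replicates. With length-dependent offsets per library, an alternative chosen after seeing the data, the early genes had a median of -0.01, the sarcomere genes one of -2.03 with 20 of 23 negative, Act87E passed the test (-1.35, adjusted p = 0.0448) and Mhc did not (-3.17, adjusted p = 0.0624), among 253 genes called, 2.61% of those tested.

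**Figure D3:**
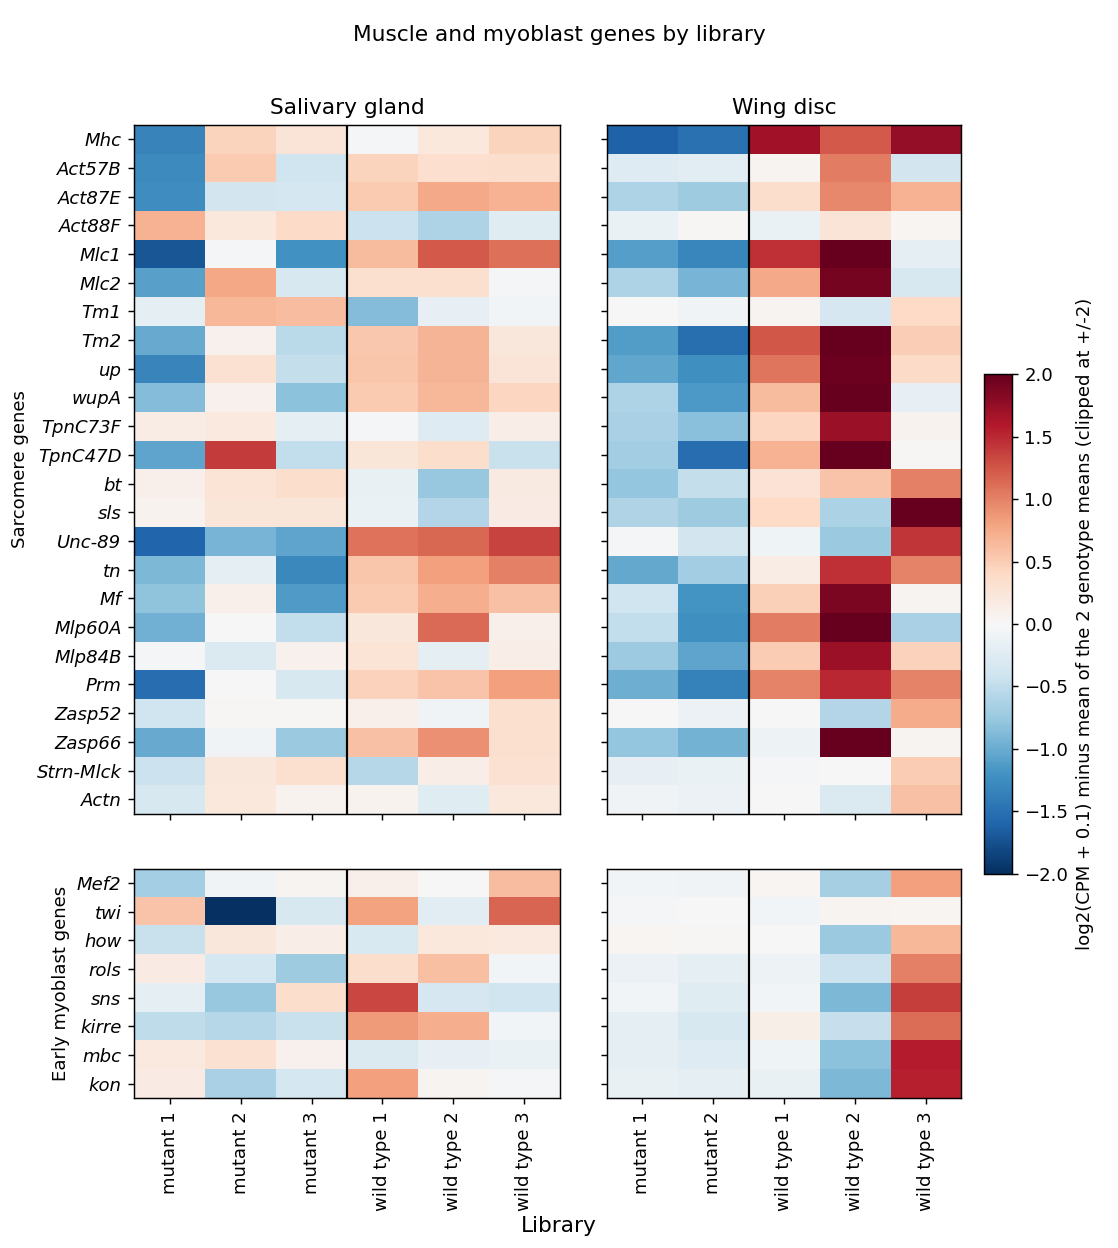
Each cell gives the log2(CPM + 0.1) of a member (rows, sarcomere genes above and early myoblast genes below) in a library (columns, mutant left of wild type in each tissue), minus the mean of the 2 genotype means of its tissue. In wing discs most sarcomere genes are blue in both mutant libraries and strongest in wild-type replicate 2, while the early genes are strongest in wild-type replicate 3. In salivary glands mutant replicate 1 is the lowest library for 15 of 24 sarcomere genes.

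The salivary comparison asked the same of a tissue without muscle of its own. The libraries here are non-directional, and 7 members overlap exons on the opposite strand, namely Act87E, Tm1, sls, Strn-Mlck, Actn, twi and kon, so reads of the overlap cannot be set apart. Here 3 sarcomere genes fell, Unc-89, Act87E and tn, and no member rose, so 3 of 32 members were called lower and 0 higher, when 10.7% of all 9006 genes tested were called, 4.96% lower and 5.71% higher. The share of members called, 9.38%, was close to that background. By DESeq2 11 were called, 10 lower and 1 higher, with 23.3% of all genes called. The 24 sarcomere genes had a median log2 fold change of -0.48 with 17 negative, the 8 early genes one of -0.67 with 7 negative (-0.44 without wild-type replicate 1), and all genes one of -0.04 with 53.9% negative. Of the 32 members 11 had mutant levels below every wild-type library, where 15.4% of all genes did, and 2 had levels above, where 20.3% did.

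Unc-89 (2R, 23995543 to 24014254) had 2.16, 3.49 and 3.18 CPM in mutant glands, against 14.4, 15.05 and 17.3 CPM in wild-type glands. The highest mutant library lay far below the lowest wild-type library, and the log2 fold change of -2.46 ± 0.19 (adjusted p = 0.0017) stayed past the threshold when any 1 library was left out. Act87E (3R, 13425983 to 13428375) had 0.993, 1.91 and 1.93 CPM in mutant glands, against 3.62, 4.28 and 4.11 CPM in wild-type glands (-1.37 ± 0.30, adjusted p = 0.0401). tn (2R, 18987344 to 19008944) had 0.382, 0.685 and 0.269 CPM in mutant glands, against 1.22, 1.49 and 1.70 CPM in wild-type glands (-1.77 ± 0.42, adjusted p = 0.0480). Neither Act87E nor tn overlapped between genotypes. tn lost its call without any 1 library, with adjusted p-values of 0.0731 to 0.167, the highest without mutant replicate 3. Act87E was called without mutant replicate 1 only, at -1.117, and had adjusted p-values of 0.0855 to 0.136 without each of the other 5, the highest without wild-type replicate 2. With no filter on low counts, where 5.34% of all genes were called, Act87E (adjusted p = 0.0601) and tn (0.0919) were not called, and tn also missed the threshold with relative log expression scaling (0.0502) and in the fit of all 11 libraries (0.0720).

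**Figure D4:**
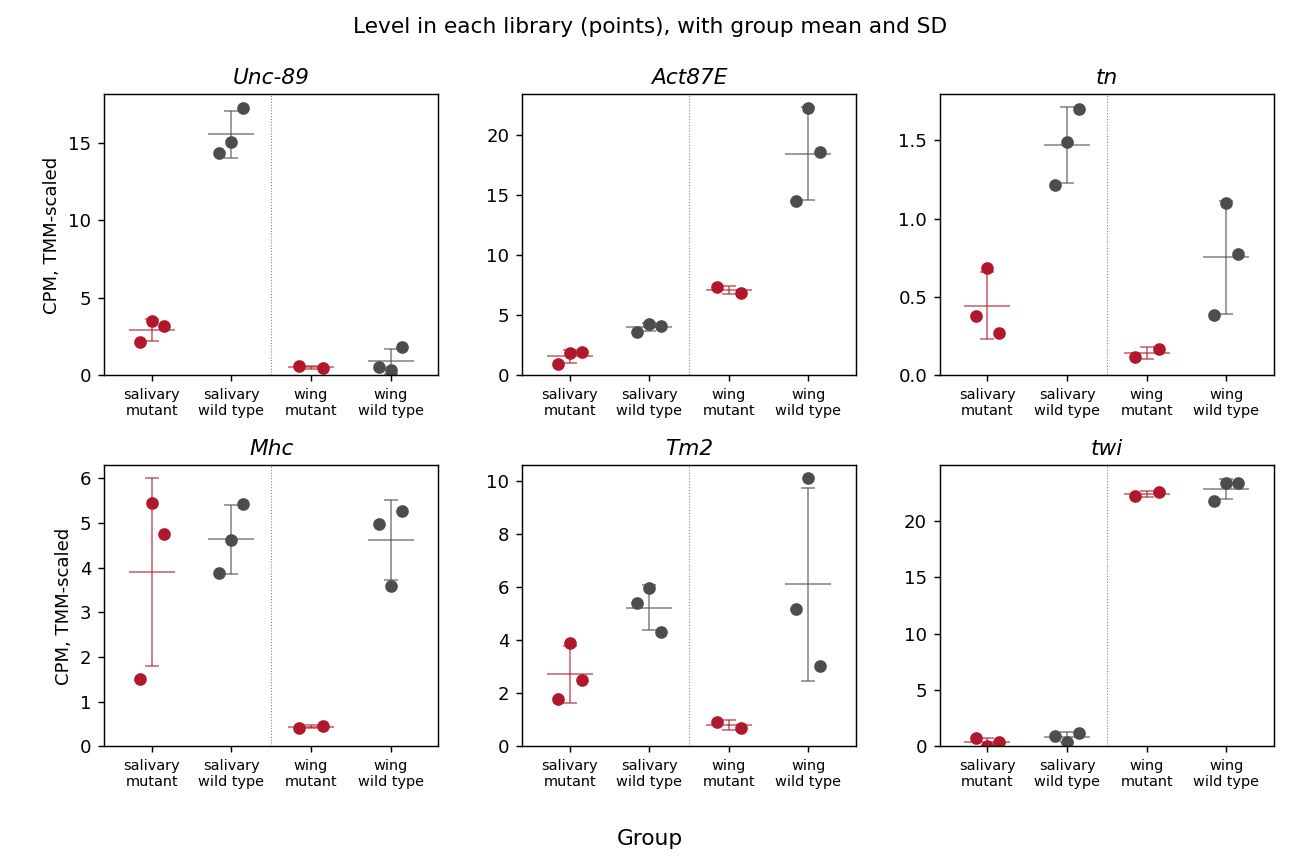
CPM of 6 members (y axis, from 0) in each library, by tissue and genotype (x axis), with the group mean and SD as bars, n = 3 per group and 2 for wing mutant. Unc-89, Act87E and tn are lower in mutant than in wild-type salivary glands without overlap, Mhc and Tm2 are lower in mutant than in wild-type wing discs, and twi is level at 21.8 to 23.3 CPM in all 5 wing libraries.

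Another 8 members did not overlap in the lower direction without a call, of which 7 were sarcomere genes. Mlc1 had 0.866, 2.97 and 1.27 CPM in mutant glands against 4.79, 7.31 and 6.73 CPM in wild-type glands (-1.94 ± 0.48, adjusted p = 0.0541). Zasp66 had 1.27, 2.51 and 1.54 CPM in mutant glands against 4.02, 5.09 and 3.35 CPM in wild-type glands (-1.30 ± 0.33, adjusted p = 0.0596). Mutant replicate 2 lay nearest to the wild type in both. Mf (-1.23 ± 0.35), Prm (-1.195 ± 0.41), Mlp60A (-1.14 ± 0.45), wupA (-1.11 ± 0.32) and Tm2 (-1.01 ± 0.33) had adjusted p-values of 0.0785 to 0.157. The eighth was the early gene kirre, with 0.891, 0.852 and 0.929 CPM in mutant glands against 2.43, 2.22 and 1.26 CPM in wild-type glands (-1.22 ± 0.35, adjusted p = 0.0795).

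Mhc did not share this layout: it had 1.502, 5.44 and 4.77 CPM in mutant glands, against 3.87, 4.61 and 5.42 CPM in wild-type glands (-0.30 ± 0.46, adjusted p = 0.695), so 1 mutant library was low and the others lay at or near the wild-type range. Mlc2 and Act57B were likewise low in mutant replicate 1 and high in replicate 2, with log2 fold changes of -0.30 ± 0.47 and -0.65 ± 0.42. Across the 24 sarcomere genes, mutant replicate 1 was the lowest of the 3 mutant libraries in 19 and mutant replicate 2 the highest in 18. Without mutant replicate 1 their median log2 fold change was -0.27, and without mutant replicate 2 it was -1.26, where 4 members were called, Mlc1, wupA, Mf and Unc-89.

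The genes with the highest salivary levels had values near 0. Strn-Mlck had 658, 1038 and 1108 CPM in mutant glands against 597, 970 and 1086 CPM in wild-type glands (0.03 ± 0.28, adjusted p = 0.963). Actn had 188, 270 and 247 CPM in mutant glands against 245, 198 and 271 CPM in wild-type glands (-0.07 ± 0.18, adjusted p = 0.811), and Zasp52 had 218, 293 and 294 CPM in mutant glands against 308, 276 and 358 CPM in wild-type glands (-0.28 ± 0.16, adjusted p = 0.283). The genotypes overlapped in all 3. Tm1 had 575, 1032 and 997 CPM in mutant glands against 359, 581 and 628 CPM in wild-type glands (0.68 ± 0.29, adjusted p = 0.187), where 1 mutant library lay within the wild-type range. The titin family genes bt and sls gave 0.40 ± 0.22 and 0.29 ± 0.18, and TpnC73F gave 0.05 ± 0.13, with adjusted p-values of 0.285, 0.317 and 0.829.

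Act88F marked the high end of the range, with 1.09, 0.748 and 0.855 CPM in mutant glands, against 0.447, 0.378 and 0.523 CPM in wild-type glands (0.94 ± 0.31, adjusted p = 0.112). Its mutant libraries lay above all wild-type libraries, on 35 to 43 counts in the mutant and 15 to 20 in the wild type. mbc was the only other member with higher mutant levels throughout, at 54.0, 57.9 and 49.7 CPM in mutant glands against 38.6, 42.2 and 42.7 CPM in wild-type glands (0.32 ± 0.09, adjusted p = 0.0730).

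Among the other early genes in salivary glands, Mef2 had 63.9, 97.2 and 106 CPM in mutant glands against 110, 101 and 158 CPM in wild-type glands (-0.52 ± 0.24, adjusted p = 0.208). twi had 0.764, 0.0415 and 0.367 CPM in mutant glands against 0.918, 0.403 and 1.204 CPM in wild-type glands (-1.16 ± 0.91, adjusted p = 0.437), on 2 to 46 counts per library. In both genes the genotypes overlapped. rols, kon and sns gave -0.66 ± 0.30, -0.68 ± 0.38 and -0.68 ± 0.63, and how gave -0.11 ± 0.22, all with adjusted p-values of 0.197 or more.

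Markers of other tissues differed in the same libraries. The 9 hemocyte markers summed to 48.2, 31.3 and 27.8 CPM in mutant glands, against 89.96, 73.4 and 84.8 CPM in wild-type glands, with 4 of 9 called lower and 1 higher, where 4.96% of all genes were called lower and 5.71% higher. The 9 trachea markers summed to 149, 130 and 110 CPM in mutant glands, against 194, 183 and 172 CPM in wild-type glands, with 2 of 9 called lower, and the 11 wing disc epithelium markers to 30.0, 16.7 and 15.4 CPM in mutant glands, against 41.2, 42.6 and 34.2 CPM in wild-type glands, with 1 of 11 called lower. All 3 sums were lower in every mutant library, and their highest mutant library was replicate 1, which was the lowest for most sarcomere genes. The 9 fat body markers ran the other way, at 227103, 144452 and 205513 CPM in mutant glands against 154440, 102717 and 151986 CPM in wild-type glands, with 3 of 9 called higher. Of 10 markers of the salivary gland itself 3 were called lower by edgeR and 5 by DESeq2, with a median log2 fold change of -0.44, against -0.48 for the sarcomere genes. None of these markers was at 0 in all libraries of a group, and their part in the members' values was not tested. Wild-type replicate 3, which lacked the gut RNA of wild-type replicates 1 and 2, had Unc-89 and tn levels above those of both and an Act87E level between them. Of the 24 sarcomere genes, this library was the highest of the wild type for 12 and the lowest for 7. The 7 include Tm2, up, wupA, Zasp66 and Mlp60A. The part of gut RNA in these values was not tested.

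**Figure D5:**
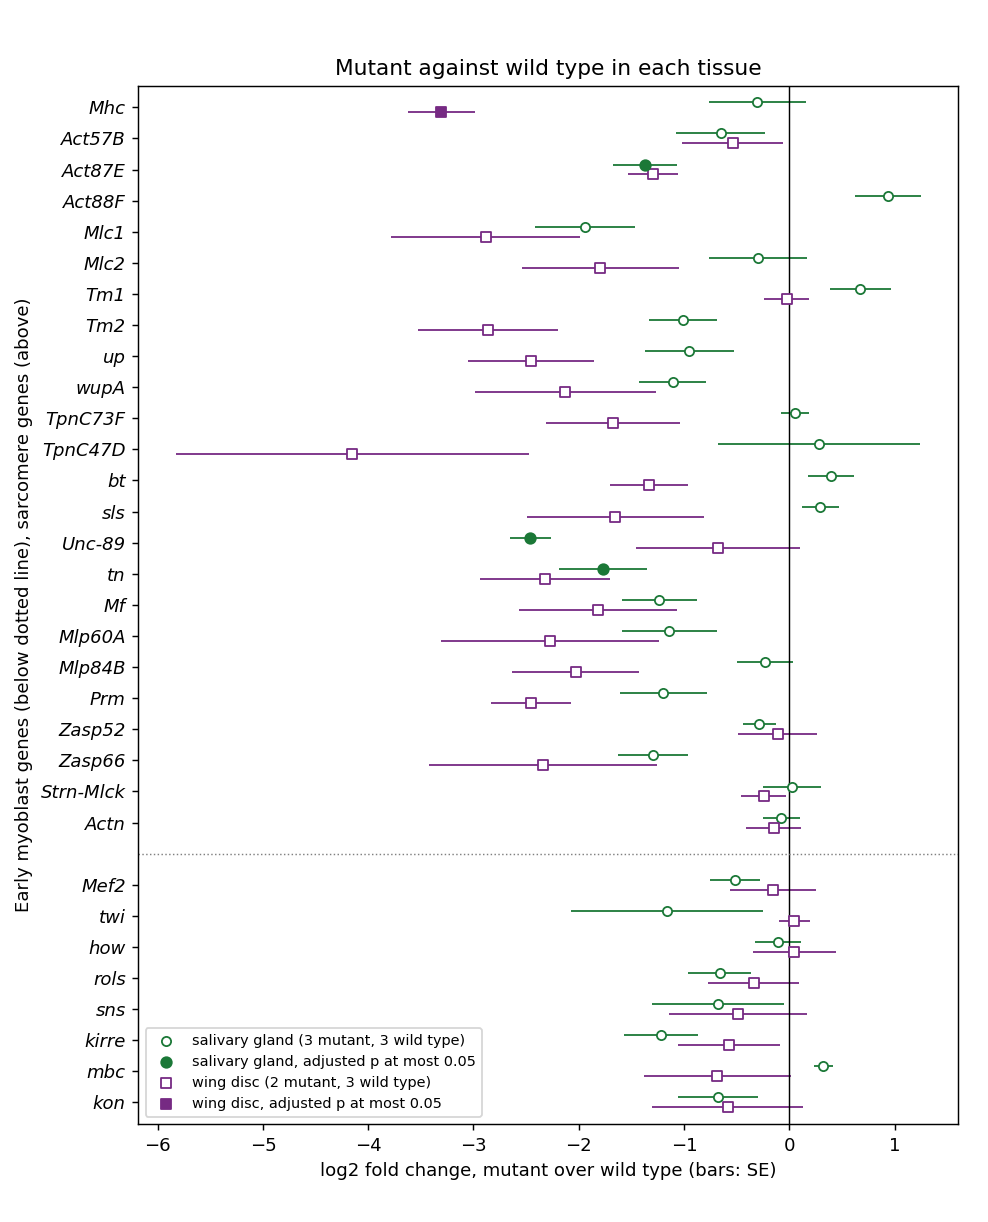
The log2 fold change of mutant over wild type (x axis, bars SE) is drawn for each member (rows, sarcomere genes above the dotted line and early myoblast genes below it), in salivary glands (circles) and wing discs (squares), with filled marks for an adjusted p of at most 0.05. Filled marks stand at -2.46 for Unc-89, -1.77 for tn and -1.37 for Act87E in salivary glands and at -3.30 for Mhc in wing discs.

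Whether the mutant effect differed between the tissues was tested in 1 model of all 11 libraries. No member passed this test in edgeR: 0 of 32 were called, with 0.848% of all 10850 genes called, 0.313% with a negative and 0.535% with a positive difference. An unadjusted p under 0.05 was seen for 9 members, all sarcomere genes, and for 1412 of all 10850 genes. DESeq2 called 2, Mhc and bt, with 5.86% of all genes called. Of 24 sarcomere genes 22 had a less negative or more positive value in salivary glands than in wing discs, against 60.4% of all genes. Their median difference was 1.201, against 0.14 over all genes. The 24 include Act88F (2.22), which had at most 3 counts in any wing library and could not be tested in wing discs alone. They also include TpnC47D (4.54), which had 8 and 0 counts in the mutant wing libraries. Of the markers of other cells, 9 of 9 for fat body had a positive difference with a median of 1.63, and 8 of 9 for hemocytes with a median of 0.73. Fewer were positive for trachea (2 of 9, median -0.85) and for neurons and glia (2 of 5, -0.34). The same held for gut (0 of 5, -6.50) and wing disc epithelium (1 of 11, -1.34). The gut sum was high in wild-type salivary replicates 1 and 2 only, at 428 and 1614 CPM, against 2.04 CPM in replicate 3. The part of these cells in the members' difference was not tested. The 8 early genes divided evenly, with 4 of each sign and a median of -0.07.

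Mhc had the lowest adjusted p, at a difference of 3.14 ± 0.66 (adjusted p = 0.0686), and passed without salivary mutant replicate 1, at 3.52 (adjusted p = 0.0096). bt followed at 1.87 ± 0.42 (adjusted p = 0.0879), and other positive values were those of TpnC73F (1.84 ± 0.58), Tm2 (1.97 ± 0.68) and Mlp84B (1.92 ± 0.62), with adjusted p-values of 0.208 to 0.256. Act87E, which was lower in the mutant by similar amounts in both tissues, differed by 0.06 ± 0.39 (adjusted p = 0.986). Unc-89 had the most negative difference, -1.60 ± 0.79 (adjusted p = 0.447). It passed without wing wild-type replicate 3, at -2.67 (adjusted p = 0.0260), and with length-dependent offsets, at -2.38 (adjusted p = 0.0012), where 3.08% of all genes were called. So the size of its tissue difference varied between settings. Its counts in wild-type wing replicates 1 to 3 were 57, 32 and 451, and the part of the length trend in its difference was not tested.

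Genes that work with the members were read from 4 further lists. Of 16 other myoblast and fusion genes tested in salivary glands, 2 fell and 1 rose, where 4.96% of all genes were called lower and 5.71% higher, a background that holds for each list here. htl, the FGF receptor gene of migrating mesoderm, had 2.65, 1.29 and 1.44 CPM in mutant glands against 5.66, 4.46 and 4.998 CPM in wild-type glands (-1.56 ± 0.32, adjusted p = 0.0346). stumps, the adaptor gene downstream of that receptor and of the tracheal one, had 3.28, 1.85 and 1.66 CPM in mutant glands against 8.34, 5.77 and 5.39 CPM in wild-type glands (-1.59 ± 0.34, adjusted p = 0.0389). Both had all mutant libraries below the wild type, and dock, an adaptor gene of the Nck family, rose (0.51 ± 0.12, adjusted p = 0.0445). The tracheal FGF receptor gene btl, counted among the trachea markers, had 1.91, 3.80 and 4.08 CPM in mutant glands against 8.86, 8.04 and 11.02 CPM in wild-type glands.

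Of 13 muscle attachment genes tested in salivary glands, wb, a laminin alpha gene, and sr, the tendon cell transcription factor gene, fell (-1.47 ± 0.34 and -1.88 ± 0.44, adjusted p = 0.0458 and 0.0469), and Pax, the paxillin gene, rose (0.57 ± 0.13, adjusted p = 0.0445). The fall of sr rests on few counts. It had 0.127, 0.0623 and 0.122 CPM in mutant glands, where 3 counts equal 0.0764, 0.0623 and 0.0733 CPM. In wild-type glands it had 0.397, 0.277 and 0.445 CPM. Of 13 contraction accessory genes, Scgalpha, a sarcoglycan gene of the dystrophin complex, had 1.25, 1.60 and 1.61 CPM in mutant glands, against 14.3, 11.1 and 16.9 CPM in wild-type glands. This was the largest change in these lists (-3.30 ± 0.19, adjusted p = 6.46e-04). jp, the junctophilin gene, fell by 0.87 ± 0.10 on the log2 scale (adjusted p = 0.0064), and unc-45, the chaperone gene for myosin, rose (1.10 ± 0.20, adjusted p = 0.0220). Of 10 non-muscle actomyosin genes edgeR called 0, where 10.7% of all genes were called, and DESeq2 called 4, all higher, where it called 23.3% of all genes. An unadjusted edgeR p under 0.05 was seen for 3 of the 10, and for 2650 of all 9006 genes tested. The medians of the 4 lists were -0.01, 0.10, -0.44 and 0.15, against -0.04 over all genes.

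In wing discs edgeR called 0 genes in these lists, among 17, 13, 14 and 10 tested, and DESeq2 called 1, Mp20, a muscle gene of the contraction accessory list, as lower. Their medians were -0.09 for other myoblast and fusion genes, -0.06 for muscle attachment genes, -0.50 for contraction accessory genes and 0.09 for non-muscle actomyosin genes. In the same order, 1, 0, 2 and 0 of them had an unadjusted edgeR p under 0.05, as did 924 of all 9689 genes tested. htl had 13.6 and 12.7 CPM in mutant discs against 15.4, 13.1 and 25.0 CPM in wild-type discs, and stumps had 24.5 and 22.4 CPM in mutant discs against 25.6, 23.6 and 46.9 CPM in wild-type discs. As for most early members, wild-type replicate 3 was the highest library for both.

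The authors' deposited table listed more members as changed at a false discovery rate of at most 0.05. In salivary glands it listed 10 of 24 sarcomere genes and 1 of 8 early genes, kirre, as lower and 0 as higher, where 11.9% of its 11021 genes were lower and 4.6% higher. In wing discs the authors' deposited table listed 17 of 24 sarcomere genes and 0 of 8 early genes as lower and 0 as higher, where 8.25% of genes were lower and 4.81% higher. For Mhc in wing discs the authors' deposited table gave a log2 value of -3.27 with a false discovery rate of 1.21e-25, and for twi 0.03 with 1. For Unc-89 in salivary glands the authors' deposited table gave -2.59 with 5.84e-10.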

How the data were processed

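The authors deposited 1 table of raw counts per gene for the 11 libraries. Software named in the submitters' processing notes, without roles, was HTSeq 0.6.1, Picard 1.119, TopHat2 2.0.8b, BWA, FastQC 0.11.3 and Trim Galore 0.3.3, with the build BDGP6. Strand use in counting was not given in the sources used here. Rows that carry no symbol took 0.00629% to 0.0278% of the counts. Per the file headers, the authors' deposited comparison tables give for each gene a log2 ratio, mean log2 CPM, likelihood ratio (a score), p-value and FDR, and the negative ratio of Cap-D3 puts mutant over wild type.

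From the counts, edgeR 4.0.16 (R 4.3.3) was fitted to each tissue alone, and to all 11 libraries for the interaction and the tissue contrast, after filterByExpr (minimum count 10, minimum total 15). Its F-test (quasi-likelihood, robust, legacy method) gave Benjamini-Hochberg adjusted p-values over all genes tested, called at 0.05. Errors of fold changes are SEs, taken as the absolute log2 value over the root of F. Biological coefficients of variation were 0.328 (salivary), 0.374 (wing) and 0.406 (all libraries). Levels per kb use the union of exons of the BDGP6 annotation, and log2 ratios for the length trend use a pseudocount of 0.1 CPM. Where no count was seen, up to 3 counts remain possible, or 0.0122 to 0.0785 CPM depending on the library, for counting error only. No libraries of a group were identical: their chi-square over degrees of freedom ranged between 16.8 and 1319. The fits were tested on simulated data. Alternatives were DESeq2 1.42.0, relative log expression scaling, no filter on low counts, the current quasi-likelihood method, a fit of all 11 libraries, length-dependent offsets and the omission of each library.

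The members and lists were chosen with earlier results of these data known. Values by library are given for members called in any comparison, for Mhc, Mef2 and twi, and for others that were chosen after their values were seen, as were btl and Mp20. Of each further list, up to 3 called genes per tissue were named by adjusted p. In salivary glands 5 neuron and glia markers came to 138 to 223 CPM in mutant and 120 to 204 CPM in wild-type libraries. Most of this sum was Syt1, at 211, 134 and 171 CPM in mutant and 159, 110 and 142 CPM in wild-type replicates 1 to 3. Of the 5 markers 4 had negative log2 fold changes and 1 a positive one, with a median of -1.82. edgeR called 0 of them, and DESeq2 called elav lower. The 10 salivary gland markers came to 293475 to 391488 CPM in mutant and 381440 to 523501 CPM in wild-type libraries.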

Additional observations from a re-analysis of the deposited data

How the results depend on the processing

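No paired analysis was done, because the labels state no pairing of libraries between groups. In salivary glands the 3 members called became 1 with no filter on low counts, 11 with DESeq2 and 1 to 4 when 1 library was left out, against 961 genes called in the whole table, 2091 with DESeq2 and 310 to 1071 when 1 library was left out. In wing discs the 1 member called became 9 with DESeq2, 3 in the fit of all 11 libraries (Mhc, Prm and Tm2) and 0 to 1 when 1 library was left out; with all genes, the count of 46 became 583 with DESeq2, 140 in the fit of all 11 libraries, 77 with the current quasi-likelihood method 253 with length-dependent offsets and 0 to 45 when 1 library was left out. In the interaction the count of 0 became 2 with DESeq2, 1 with length-dependent offsets and 0 to 1 when 1 library was left out, and the whole table gave 92 genes, 616 with DESeq2, 334 with length-dependent offsets and 7 to 262 when 1 library was left out. In the contrast of wild-type tissues the count of 16 kept within 14 to 18 in all settings. The other settings kept the counts of members called within 1.5 times, or moved them by 1 gene. Ranking by the longest transcript kept 4 or 5 of the 5 highest members per kb in each group.

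Of single members in wing discs, the fit of all 11 libraries turned the sign of twi (-0.028) and how (-0.050), and length-dependent offsets that of Tm1 (0.15), Zasp52 (0.21), Actn (0.0023), Mef2 (0.18) and sns (0.023). Leaving out 1 library turned signs of uncalled members only: in salivary glands Mhc (-0.60 to 0.087), Mlc2 (-0.93 to 0.051), TpnC73F (-0.028 to 0.20), TpnC47D (-1.46 to 0.78), Strn-Mlck (-0.18 to 0.23), Actn (-0.17 to 0.070), how (-0.24 to 0.078) and sns (-0.99 to 0.22), and in wing discs Tm1 (-0.18 to 0.10), Unc-89 (-1.07 to 0.24), Zasp52 (-0.36 to 0.21), Actn (-0.31 to 0.058), Mef2 (-0.43 to 0.22), twi (-0.0083 to 0.086), how (-0.23 to 0.38), rols (-0.59 to 0.12), sns (-0.87 to 0.29), mbc (-1.07 to 0.19) and kon (-0.98 to 0.33). The cause was not tested. With 2 mutant wing libraries, fits that leave 1 out assume that the lone sample varies like the other group. Low counts limit TpnC47D, Act88F, twi and sr in salivary glands.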
